A study of Mus musculus with 6 samples.

Results

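The 10 BCL2 family genes described here regulate the mitochondrial route of apoptosis, and they were followed in CAD cells that had lost serum and differentiated. They were taken by gene symbol from a deposited table of 26436 mouse genes, and all 10 were found: the pro-survival genes Bcl2, Bcl2l1, Bcl2l2 and Mcl1, the effector genes Bax, Bak1 and Bok, and the BH3-only genes Bcl2l11, Bad and Bid. Both groups were CAD cells, a mouse line labelled as central nervous system and catecholaminergic, with no strain, age or genetic change given. The differentiated group, 3 libraries, had spent 5 days in DMEM/F12 with penicillin, streptomycin and a supplement of insulin, transferrin and selenium. The undifferentiated group, 3 libraries, grew in that base medium and antibiotics plus 10% fetal bovine serum. Serum loss, the supplement and differentiation coincide in this design and cannot be told apart, and the comparison is within a single cell line. The labels do not state that libraries were separate cultures, so the p-values cover the spread between libraries, which may be technical.

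BCL2 family proteins decide whether the outer mitochondrial membrane is opened. BAX and BAK1, once activated, form pores that let cytochrome c out, and BOK is a related protein that can open the membrane by itself. BCL2, BCL-XL (from Bcl2l1), BCL-W (from Bcl2l2) and MCL1 hold BAX, BAK1 and the BH3-only proteins in check, while BOK is known to act largely without their control. BH3-only proteins such as BIM (from Bcl2l11), BAD and BID relay stress signals to other members of the family. In neurons, loss of trophic support is known to raise BIM, and mature neurons are known to become harder to kill through this route.

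The 10 genes share the BH3 core, and its coding stretch is shown for each because genes that moved in opposite directions carry the same element. The stretches were read from GENCODE M21 transcripts (GRCm38), 39 bases each, from the longest protein-coding transcript with a match. Capitals mark the codons for leucine or methionine and, after 3 codons in lower case, for glycine or serine followed by aspartate. The search pattern also required aspartate, glutamate or glycine as the next residue, and each printed transcript matched it once. All of these stretches are exonic, and that of Bok joins exons 2 and 3, so its coordinates include an intron.
Bcl2 (chr1:106712575-106712613, minus strand, exon 1): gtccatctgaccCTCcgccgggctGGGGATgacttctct
Bcl2l1 (chr2:152829697-152829735, minus strand, exon 2): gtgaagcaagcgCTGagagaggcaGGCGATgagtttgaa
Bcl2l2 (chr14:54884505-54884543, plus strand, exon 3): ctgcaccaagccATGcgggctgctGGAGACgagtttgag
Mcl1 (chr3:95659424-95659462, plus strand, exon 1): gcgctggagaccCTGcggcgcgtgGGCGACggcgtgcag
Bax (chr7:45465997-45466035, minus strand, exon 3): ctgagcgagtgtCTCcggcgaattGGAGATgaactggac
Bak1 (chr17:27022531-27022569, minus strand, exon 4): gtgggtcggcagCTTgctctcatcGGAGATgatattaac
Bok (chr1:93686645-93689170, plus strand, exons 2 and 3): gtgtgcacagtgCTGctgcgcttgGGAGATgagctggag
Bcl2l11 (chr2:128147138-128147176, plus strand, exon 3): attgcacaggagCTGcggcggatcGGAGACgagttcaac
Bad (chr19:6950780-6950818, plus strand, exon 3): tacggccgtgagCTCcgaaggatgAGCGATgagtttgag
Bid (chr6:120897289-120897327, minus strand, exon 4): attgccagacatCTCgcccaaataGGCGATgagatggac
Of 38 annotated protein-coding transcripts of the 10 genes that begin with a start codon, 33 encode the pattern. Several of these genes are known to make splice forms of differing or opposite effect, such as BCL-XL and BCL-XS from Bcl2l1, and the values below are totals per gene that do not separate them.

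All gene values are from the authors' own comparison, which holds 1 mean, 1 fold change and 1 standard error (SE) per gene, so values of single libraries cannot be shown. Levels are mean normalized counts, taken here as means over the 6 libraries. These means sum to 38846803 over all genes; totals per library were not analysed here. All 10 genes were well above the low range, with means from 342 (Bid) to 3749 (Mcl1) normalized counts in the authors' deposited table. Group means given below are implied ones, computed from the mean and the fold change, taking both groups as equally large. The catecholaminergic label was checked against 9 markers, all of which had a value, 7 of them with a mean of at least 100. Their implied group means summed to 26909 normalized counts in differentiated cells and 28705 in undifferentiated cells. Most of both sums came from Hand2 (17171 in differentiated, 15023 in undifferentiated cells) and Phox2a (5354 in differentiated, 9773 in undifferentiated cells). Th and Ddc had means under 100, at 91.3 and 59.7 normalized counts in the authors' deposited table. Dbh, which makes noradrenaline, had an implied mean of 13.95 in differentiated cells, against 568.6 in undifferentiated cells. Markers of astrocytes (2 of 4 with a value) and of microglia or macrophages (3 of 4) had means under 10, those of oligodendrocytes (3 of 4) reached 74.5 and those of fibroblasts (4 of 4) reached 53.7. Their implied sums were higher in differentiated cells, at 11.6 in differentiated against 5.93 in undifferentiated cells for astrocytes and 13.2 in differentiated against 8.51 in undifferentiated cells for microglia or macrophages. For oligodendrocytes the sums were 114 in differentiated against 79.1 in undifferentiated cells, and for fibroblasts 97.3 in differentiated against 56.5 in undifferentiated cells. Of 3 endothelial markers Pecam1 had a mean of 632 and the other two under 10, and the implied sums were 808 in differentiated cells and 468 in undifferentiated cells. The part of other cells in the results was not tested.

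Differentiated CAD cells had more Bcl2l11, Bcl2 and Bcl2l1 transcript and less Bok, Bak1, Bax and Mcl1 transcript than undifferentiated cells. All 3 effector genes fell, 2 of 4 pro-survival genes rose while Mcl1 fell, and 1 of 3 BH3-only genes rose. The changes were below 2-fold, from 0.658-fold for Bok to 1.77-fold for Bcl2l11. By the DESeq2 Wald test of the authors' deposited table, 7 of the 10 were called at an adjusted p under 0.05, 3 higher and 4 lower. The background was 35.9% of 20285 genes tested, 18.2% higher and 17.7% lower. Among the 13197 genes averaging at least 100 normalized counts, a level all 10 members pass, 47.5% were called, 21.9% higher and 25.6% lower. The members' share is above both, but it rests on 10 genes and was not tested. The median log2 fold change was 0.13 over the members, 0.01 over all genes tested and -0.03 over those averaging at least 100 normalized counts. The members thus had estimates on both sides of no change.

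**Figure D1:**
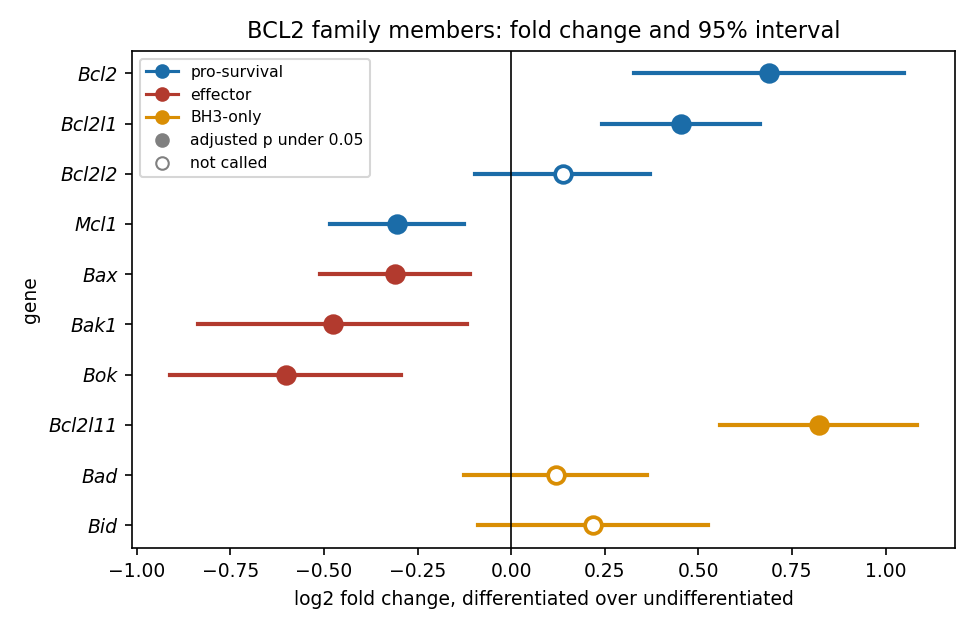
Log2 fold change of differentiated over undifferentiated CAD cells (horizontal axis) for the 10 genes (vertical axis), as points with 95% intervals from the authors' standard errors, coloured by role; filled points have an adjusted p under 0.05. The 3 effector genes lie between -0.60 and -0.31, and the highest point is Bcl2l11 at 0.82.

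Of the pro-survival genes, Bcl2, the founding member of the family, had an implied mean of 754 normalized counts in differentiated cells, against 468 in undifferentiated cells. It rose 1.61-fold by the authors' deposited table (95% interval 1.26 to 2.07), from a log2 estimate of 0.69 ± 0.18 (SE) with a Wald adjusted p of 0.000948. The SE of Bcl2 was 1.37 times the median SE of 500 genes of like mean, so its fold is less precise than its level would give.

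Bcl2l1, whose main product BCL-XL is a major survival factor of developing neurons, had an implied mean of 2055 normalized counts in differentiated cells, against 1501 in undifferentiated cells. It rose 1.37-fold by the authors' deposited table (95% interval 1.18 to 1.59), from a log2 estimate of 0.45 ± 0.11 (SE) with a Wald adjusted p of 0.000185. Its SE was 0.956 times that of genes of like mean.

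Mcl1, which encodes a short-lived survival protein needed in many dividing cells, went the other way. Its implied mean was 3354 normalized counts in differentiated cells and 4144 in undifferentiated cells, the highest read count of the 10 genes in both groups. Mcl1 fell to 0.809-fold by the authors' deposited table (95% interval 0.715 to 0.916), from a log2 estimate of -0.31 ± 0.09 (SE) with a Wald adjusted p of 0.00349. The 95% intervals of Mcl1 and of Bcl2 and Bcl2l1 do not overlap, which follows from their calls in opposite directions. Bcl2l2, which encodes the survival protein BCL-W, was not called, with a log2 estimate of 0.14 ± 0.12 (SE) and a Wald adjusted p of 0.412 in the authors' deposited table. For Bcl2l2 the group means came to 1252 normalized counts in differentiated cells and 1138 in undifferentiated cells, and the interval reached from 0.934-fold to 1.29-fold, so changes within that range are not excluded.

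The 3 effector genes were lower in differentiated cells. Bok had an implied mean of 1141 normalized counts in differentiated cells and 1732 in undifferentiated cells. It fell to 0.658-fold by the authors' deposited table (95% interval 0.531 to 0.816), from a log2 estimate of -0.60 ± 0.16 (SE) with a Wald adjusted p of 0.000742, the lowest of the 10 estimates. The SE of Bok was 1.38 times that of genes of like mean.

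Bak1 encodes a pore former that resides on mitochondria also in healthy cells. Its implied mean was 700.01 normalized counts in differentiated cells and 974 in undifferentiated cells. Bak1 fell to 0.719-fold by the authors' deposited table (95% interval 0.560 to 0.922), from a log2 estimate of -0.48 ± 0.18 (SE) with a Wald adjusted p of 0.0287. It had the largest SE of the 10 relative to genes of like mean, 1.48 times, and of the 7 called members it alone misses an adjusted p under 0.01, which 26.9% of all genes tested reach.

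Bax encodes the pore former that moves from the cytosol to mitochondria on activation, and which is required for the death of many neurons deprived of trophic factors. Its implied mean was 1239 normalized counts in differentiated cells and 1537 in undifferentiated cells. Bax fell to 0.806-fold by the authors' deposited table (95% interval 0.701 to 0.926), from a log2 estimate of -0.31 ± 0.10 (SE) with a Wald adjusted p of 0.00911. The 95% intervals of Bok, Bak1 and Bax overlap one another, so their order is not resolved.

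Among the BH3-only genes, Bcl2l11 had the largest change of the 10. Its implied mean was 806 normalized counts in differentiated cells, against 456 in undifferentiated cells. It rose 1.77-fold by the authors' deposited table (95% interval 1.47 to 2.12), from a log2 estimate of 0.82 ± 0.13 (SE) with a Wald adjusted p of 2.04e-08. Of genes averaging at least 100 normalized counts, 11.2% had a larger absolute log2 fold change, so the change of Bcl2l11 is not unusual in size for this comparison. For Bcl2 and Bok that share was 15.8% and 20.5%, and for Bax and Mcl1 it was 46.9% and 47.6%.

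Bad, whose protein is held inactive by phosphorylation downstream of insulin and other growth factors, was not called. Its implied mean was 721 normalized counts in differentiated cells and 664 in undifferentiated cells, and the authors' deposited table has it at a log2 estimate of 0.12 ± 0.12 (SE), Wald adjusted p 0.509. Bid, whose protein is cut by caspase-8 and links death receptors to mitochondria, had an implied mean of 367 normalized counts in differentiated cells and 316 in undifferentiated cells. The authors' deposited table has Bid at a log2 estimate of 0.22 ± 0.16 (SE), Wald adjusted p 0.299. The 95% intervals reached from 0.917-fold to 1.29-fold for Bad and from 0.940-fold to 1.44-fold for Bid.

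In the order of log2 fold change, from highest to lowest, the genes were Bcl2l11, Bcl2, Bcl2l1, Bid, Bcl2l2, Bad, Mcl1, Bax, Bak1 and Bok. The 95% intervals of neighbours in this order overlapped in 8 of 9 cases, the exception being Bad and Mcl1. All 12 pairs of 1 of the 3 highest with 1 of the 4 lowest genes had intervals that do not overlap, among 25 such pairs of 45 in all. For those 12 this follows from the calls, which put the intervals on opposite sides of no change. The step between Bad and Mcl1, 0.42 on the log2 scale, was the largest between neighbours, and the next was 0.24. Bid, Bcl2l2 and Bad lie between the called groups with intervals that include no change.

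**Figure D2:**
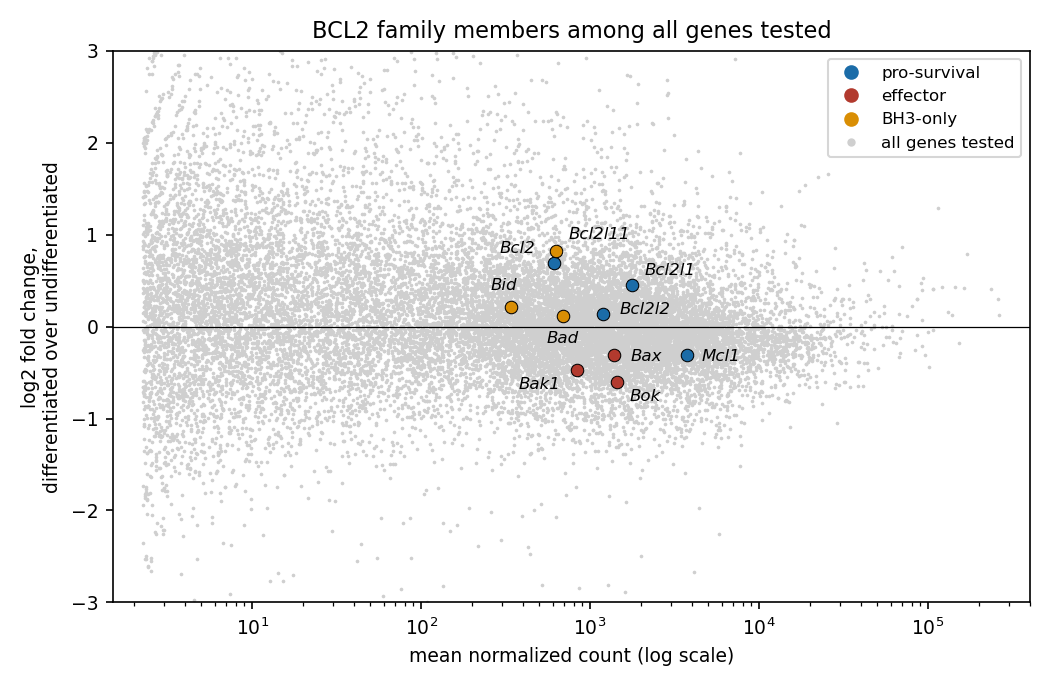
Log2 fold change, differentiated over undifferentiated CAD cells, (vertical axis) against mean normalized count on a log scale (horizontal axis) for all genes tested (grey; 246 genes lie outside the plotted range) and for the 10 members, coloured by role. The members have means of 342 to 3749 and log2 fold changes of -0.60 to 0.82, inside the cloud of genes of like mean.

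Levels were compared between genes per kilobase (kb) of the longest annotated transcript. On that scale of mean normalized count per kb the highest genes were Bax (1262), Mcl1 (1097), Bok (978) and Bcl2l1 (692), followed by Bad (452), Bak1 (351), Bcl2l2 (313), Bid (141), Bcl2l11 (125) and Bcl2 (84.9). Bcl2 thus had the lowest level of the 10 per kb, and its 1.61-fold rise left it at 105 normalized counts per kb in differentiated cells, against 65.0 in undifferentiated cells. Implied levels of Bcl2l11 were 160.1 per kb in differentiated cells and 90.6 in undifferentiated cells. The place of Bcl2l2 depends on the length chosen: its rank was 7 by the longest and 3 by the median transcript length. Bax was first and Bcl2 last by both lengths. The error of these levels was not available without library values.

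**Figure D3:**
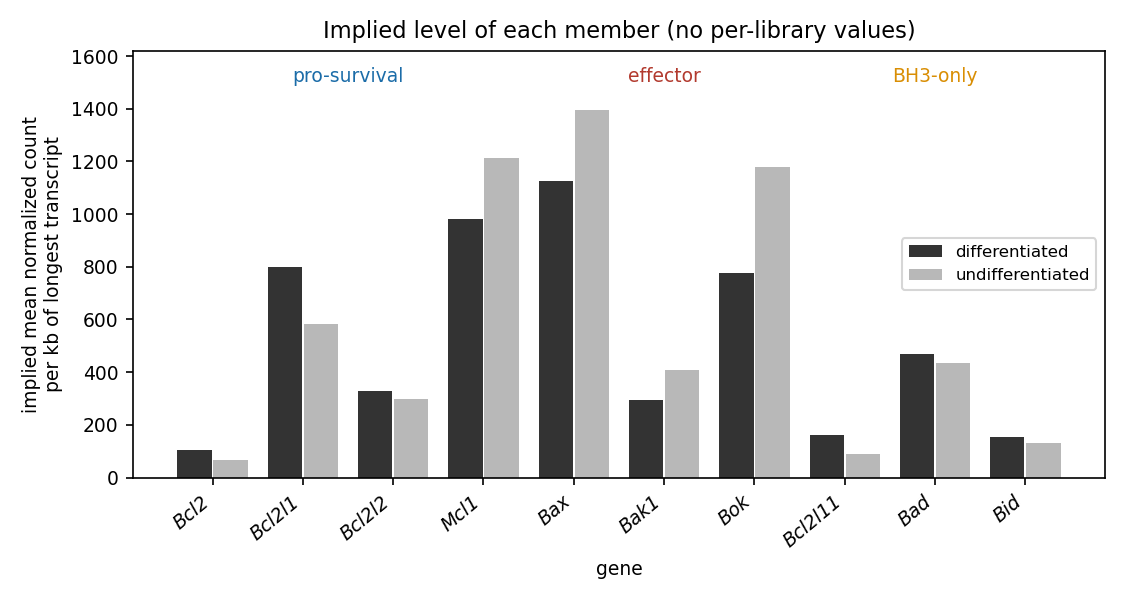
Implied mean normalized count per kb of the longest transcript (vertical axis, from 0) for each gene (horizontal axis), in differentiated cells (dark bars) and undifferentiated cells (light bars), with no error bars because library values were not analysed. Bax stands at 1126 in differentiated cells and 1397 in undifferentiated cells, while Bcl2 stands at 105 in differentiated cells and 65.0 in undifferentiated cells.

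Ratios between members followed from these folds. Per kb, the ratio of Bcl2 to Bax transcript was 0.0931 in differentiated cells and 0.0465 in undifferentiated cells, and that of Bcl2l1 to Bax 0.711 in differentiated cells and 0.418 in undifferentiated cells. The ratio of Bcl2 to Bcl2l11, both of which rose, was 0.654 in differentiated cells and 0.717 in undifferentiated cells. The ratio of Mcl1 to Bcl2l11 was 6.13 in differentiated cells and 13.4 in undifferentiated cells. Summed over roles per kb, the 4 pro-survival genes stood at 2215 normalized counts per kb in differentiated cells and 2160 in undifferentiated cells. The 3 effector genes summed to 2196 per kb in differentiated cells and 2985 in undifferentiated cells, and the 3 BH3-only genes to 783 per kb in differentiated cells and 655 in undifferentiated cells. Without Mcl1 the pro-survival sum was 1233 per kb in differentiated cells and 948 in undifferentiated cells. The ratio of the pro-survival to the effector sum was 1.01 in differentiated cells and 0.724 in undifferentiated cells. By the median transcript length it was 1.37 in differentiated cells and 0.952 in undifferentiated cells, so its size depends on the length chosen. These ratios and sums are descriptions of transcript levels with no test, because the covariance of the estimates is not in the files.

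Upstream sequence was examined where the data bear on it. Foxo3 encodes a factor known to activate Bcl2l11 when survival signalling is low, and it rose with a log2 estimate of 1.64 ± 0.19 (SE), Wald adjusted p 1.02e-15, by the authors' deposited table. RefSeq windows (GRCm38.p6) from 250 bases before to 50 bases after the start site, 14 for the 10 genes, were searched on both strands for the FOXO core GTAAACA, the E-box CACGTG, the cAMP response element TGACGTCA, the AP-1 site TGANTCA and the GC box GGGCGG. The FOXO core was found in 1 member window, that of the upstream start of Bcl2l11, which has 2 starts, and in 3.65% of all 32851 windows. Outside the 10 genes, it also lay at -167 in a window of Bbc3, which was not called. The windows of Hrk, Bmf and Bnip3 lacked it. The E-box was found in the window of Bax alone among members, at 2 places, and in 7.15% of all windows. GC boxes were in 9 of 14 member windows, belonging to 8 of the 10 genes, and in 35.7% of all windows. Neither the cAMP response element (1.79% of all windows) nor the AP-1 site (7.81%) was found in a member window, and no hits of different motifs overlapped in the member windows. The 120 bases of Bcl2l11 from -250 to -131 are shown with the FOXO core in capitals, and the 120 bases of Bax from -120 to -1 with its upstream E-box in capitals; both start sites equal those of GENCODE M21.
Bcl2l11 (chr2:128125788-128125907, plus strand): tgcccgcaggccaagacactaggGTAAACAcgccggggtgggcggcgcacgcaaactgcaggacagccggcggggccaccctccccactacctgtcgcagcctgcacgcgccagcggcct
Bax (chr7:45466899-45467018, minus strand): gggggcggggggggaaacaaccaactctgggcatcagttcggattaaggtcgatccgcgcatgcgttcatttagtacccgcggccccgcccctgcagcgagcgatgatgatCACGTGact
These matches describe letters in a window and do not show binding, and a link between Foxo3 and Bcl2l11 was not tested.

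Other BCL2 family genes included 3 that rose. Of 15 such genes listed, 9 had a value, and 3 of them were called higher and 0 lower. The share called in either direction was near the 35.9% of all genes tested. Called higher were 18.2% of all genes tested, and 17.7% were called lower. With a mean of at least 100 normalized counts there were 6 genes, 3 called higher and 0 lower. Among all genes at that level 21.9% were higher and 25.6% lower, and neither difference was tested. The median of the 9 was 0.68 on the log2 scale, against 0.01 over all genes tested. That value is the estimate of Bcl2l15, which had a mean of only 2.39 normalized counts. Over the 6 averaging at least 100 normalized counts the median was 1.24, against -0.03 over all genes at that level. Hrk, a BH3-only gene known in neurons deprived of nerve growth factor, reached an implied mean of 1802 normalized counts in differentiated cells, against 563 in undifferentiated cells. It rose with a log2 estimate of 1.68 ± 0.17 (SE), Wald adjusted p 1.10e-19, by the authors' deposited table, a larger estimate than that of any of the 10 members. Bnip3 (2.26, SE 0.74) and Bnip3l (1.13, SE 0.40), mitophagy receptors with a BH3-like stretch, also rose on the log2 scale in the authors' deposited table, with standard errors 7.05 and 3.85 times those of genes of like mean. Bbc3, which encodes the p53 target PUMA, had the log2 fold change 1.36 but an SE of 0.59 in the authors' deposited table, and it was not called (Wald adjusted p 0.0590). Bbc3 passed with adjusted p 0.0447 when p-values were adjusted over genes averaging at least 100 normalized counts, and with 0.0492 over protein-coding genes. Bmf (0.20, SE 0.26), an actin- and microtubule-linked BH3-only gene, and Bcl2l13 (-0.01, SE 0.08), a mitochondrial member, were not called by log2 fold change in the authors' deposited table. Bcl2l12, Bik and Bcl2l15 had means of 16.003, 7.30 and 2.39 normalized counts in the authors' deposited table and were not called. Pmaip1, Bcl2a1a, Bcl2a1b, Bcl2a1d, Bcl2l10 and Bcl2l14 were not analysed here.

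Of 12 apoptosome and caspase genes, 7 were called lower and 1 higher, and their log2 median was -0.33. Over all genes tested 17.7% were called lower, or 25.6% of those averaging at least 100 normalized counts, and the difference from these shares was not tested. Cycs, cytochrome c, had the log2 fold change -0.67 (SE 0.14) in the authors' deposited table, and Apaf1, the scaffold it binds, had -0.46 (SE 0.11). The mitochondrial proteins that relieve caspase inhibition gave log2 fold changes of -0.46 (SE 0.10) for Htra2 and -0.33 (SE 0.09) for Diablo in the authors' deposited table, and the initiator gene Casp2 -0.50 (SE 0.12). Casp9, the caspase of the apoptosome, was the gene called higher, with a log2 estimate of 0.79 ± 0.16 (SE) by the authors' deposited table.

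Of 7 inhibitors of apoptosis, 2 were called higher and 2 lower. Their log2 median was 0.24, or 0.07 over the 6 that averaged at least 100 normalized counts. Over all genes tested 35.9% were called in either direction, and the difference from this share was not tested. Naip2 (1.27, SE 0.24) and the caspase-8 antagonist Cflar (0.40, SE 0.13) rose on the log2 scale in the authors' deposited table. Birc5 (-0.97, SE 0.16), survivin, which is also a mitotic protein, and Birc6 (-0.45, SE 0.16) fell on the log2 scale in the authors' deposited table. None of 11 genes of the mitochondrial pore and of mitochondrial shape was called by the authors' adjustment. Of all genes averaging at least 100 normalized counts, a level these 11 pass, 47.5% were called, and the difference was not tested. The log2 estimates of the 11 ran from -0.22 to 0.14 around a median of 0.03. By the authors' Wald test of DESeq2, 1 of the 11, Mtch2, had an unadjusted p under 0.05. Mtch2, which encodes a mitochondrial receptor of BID, stood at -0.22 (SE 0.10, Wald adjusted p 0.0582) by log2 fold change in the authors' deposited table. It passed when p-values were adjusted over genes averaging at least 10 (0.0498) or 100 normalized counts (0.0441) or over protein-coding genes (0.0486).

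Of 9 transcription factor genes known to act on BH3-only genes, 5 were called higher and 3 lower. The shares over all genes tested were 18.2% higher and 17.7% lower. With a mean of at least 100 normalized counts there were 7 genes, 4 called higher and 3 lower. Among all genes at that level 21.9% were higher and 25.6% lower, and neither difference was tested. Trp73 was called higher at a mean of only 5.14 normalized counts, and its log2 estimate, 3.32 ± 1.19 (SE), was the largest of the list. Foxo3 and Ddit3, the stress factor CHOP (1.60, SE 0.19), had the largest increases of this list among genes averaging at least 100 normalized counts by the authors' deposited table, followed by Foxo4 (0.43, SE 0.17). Mybl2 (-1.65, SE 0.18), Trp53 (-0.55, SE 0.12) and E2f1 (-0.44, SE 0.11) fell on the log2 scale in the authors' deposited table. Of 24 kinases and partners acting at the protein level, 4 were called higher and 7 lower (median log2 fold change -0.12). The share called is near the 47.5% of all genes averaging at least 100 normalized counts, a level all 24 pass. The counts of 4 and 7 depend on the scale. Centred on the median gene or on the implied group totals, 5 were called higher and 3 lower. Akt1, Gsk3a, Dynll1 and Ywhaq then lost their calls and Ywhah gained 1. Mapk10 (0.49), a JNK kinase of neurons that can phosphorylate BIM, Gsk3b (0.44), which can mark MCL1 for destruction, and the 14-3-3 gene Ywhag (0.42) rose on the log2 scale in the authors' deposited table. Bag3 (-0.80), Pim3 (-0.42) and the 14-3-3 gene Ywhae (-0.27), whose proteins are a co-chaperone, a kinase and a binding partner of phosphorylated BAD, fell on the log2 scale in the authors' deposited table.

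Of 8 death receptor and adaptor genes, 7 were tested, 1 being called higher and 2 lower. Over all genes tested 35.9% were called in either direction, and the difference from this share was not tested. The log2 median of the 7 was 0.14, or -0.29 over the 5 that averaged at least 100 normalized counts. Tnfrsf1a (0.33, SE 0.08) rose, and Fadd (-0.33, SE 0.13) and Ngfr (-2.25, SE 0.43) fell, on the log2 scale in the authors' deposited table. The SE of Ngfr was 4.35 times that of genes of like mean. In the same list Ripk1, a kinase that binds FADD and death receptors, passed when p-values were adjusted over genes averaging at least 100 normalized counts (adjusted p 0.0460). Fadd lost its call on centring, whether on the median of genes averaging at least 100 normalized counts (adjusted p 0.0656) or on the implied group totals (0.0554).

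**Figure D4:**
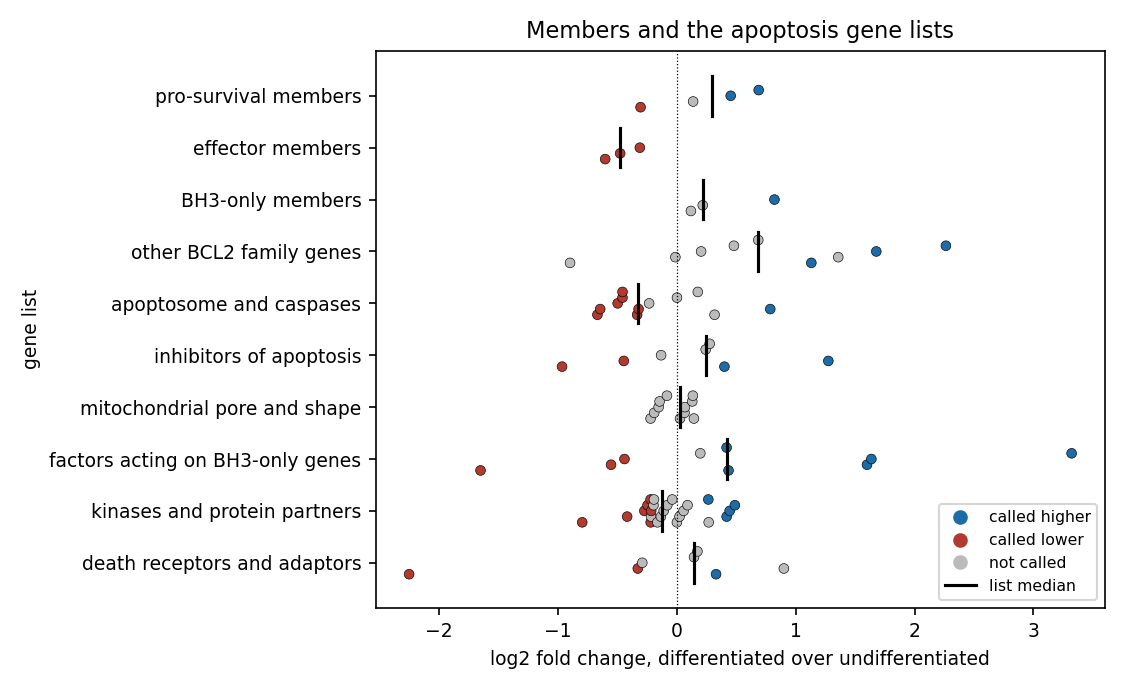
Log2 fold change, differentiated over undifferentiated CAD cells, (horizontal axis) for each tested gene of the member groups and of the other apoptosis lists (vertical axis), blue where called higher, red where called lower and grey where not called, with a bar at the list median. The effector and the apoptosome and caspase genes have medians of -0.48 and -0.33. The other BCL2 family genes have 0.68, or 1.24 over the 6 that average at least 100 normalized counts.

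Some members share ground with other genes in GENCODE M21 (GRCm38). The protein-coding models Gm20521 and Gm45808 overlap Bcl2l2 and Bax on the same strand, and neither was analysed here. On the opposite strand D630008O14Rik, an antisense RNA not analysed here, overlaps Bcl2, Ggnbp1 overlaps Bak1, Gpr137 overlaps Bad and Bcl2l13 overlaps Bid. The level of Ggnbp1 averaged 19.8 in the authors' deposited table, in normalized counts, and Gpr137 stood at a log2 estimate of 0.46 ± 0.11 (SE) by the authors' deposited table. The libraries were stranded but the strand setting of the counting is not given in the sources used here, so a share of reads from these neighbours in the values of Bcl2, Bcl2l2, Bax, Bak1, Bad and Bid was not tested.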

How the data were processed

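RNA from 3 libraries of differentiated and 3 of undifferentiated CAD cells was read as single-end 50 bp reads of stranded libraries, per the labels' protocols. The submitters' processing notes name STAR 2.5.1a, Trimmomatic 0.36, FastQC 0.11.5, DESeq2 and the build GRCm38.p6. For counter, strand setting and annotation nothing is given in the sources used here. The authors' table has 1 row per gene: a deposited signal (mean normalized count), a deposited log2 fold change with its log2 SE, a score (the Wald statistic, equal to fold change over SE within 1.24e-13) and deposited p-values, adjusted by Benjamini-Hochberg over 20285 of 26436 genes (equal within 1.44e-15). A count model was planned, but only this comparison was held, so the authors' test was kept. Totals per library were not analysed here, and precision is given by the SE.

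Genes were called at an adjusted p under 0.05. The 95% intervals are the fold change ± 1.96 SE. Of the gene IDs 26276 matched GENCODE M21 and 160 did not. Python 3.11.15, pandas 2.3.3 and scipy 1.17.1 were used, and the adjustment was tested on simulated data. Members and lists were chosen with earlier results of these data known. All 10 members and all other BCL2 family genes are named. So are up to 6 called genes per list with a mean of at least 100, by size of change. Mtch2, Akt1, Gsk3a, Dynll1, Ywhaq, Ywhah, Ripk1, Gpr137, Ggnbp1, D630008O14Rik, Gm20521, Gm45808, Dbh and Pecam1 were added after their values were seen. Hand2, Phox2a, Th, Ddc, Trp73, Gm37053, Mir3473f and Gm44260 were likewise added after their values were seen. No set test was run.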

Additional observations from a re-analysis of the deposited data

How the results depend on the processing

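The counts of 3 members called higher and 4 called lower were the same when p-values were adjusted over every gene, over genes with a mean of at least 10 or 100, or over protein-coding genes, and after centring on the median gene (-0.03 on the log2 scale) or on the implied group totals (-0.02). At an adjusted p under 0.01 there were 3 higher and 3 lower, Bak1 being lost. Tested against a change of 1.2-fold in either direction, 1 member (Bcl2l11, adjusted p 0.000576) was called higher and 0 lower, beside 2673 of 20285 genes in all; the adjusted p was then 0.123 for Bcl2, 0.347 for Bcl2l1, 0.172 for Bok, 0.778 for Bak1 and 1.0 for Bax and Mcl1. By the unadjusted p of that test Bok alone of the 4 lower members was under 0.05 (0.0314). The thresholds, adjustment sets and the 1.2-fold test leave the fold changes as they are, so no direction could change there. Both centring shifts were smaller than the absolute log2 fold change of any called member. Fits without single libraries and with other normalizations could not be run on this table. No paired analysis was possible because no values of single libraries were analysed. The labels number the libraries 5, 15 and 25 (differentiated) and 1, 11 and 21 (undifferentiated), which runs in parallel; whether the numbers mark shared sets is not stated, and pairing was not tested. The counts of called genes in the other lists under these settings were computed after seeing the data.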
